A study of Mus musculus with 2 samples.

Results

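The fibroblast growth factor (FGF) receptor genes of the mouse coronal suture were measured in single cells of the embryo. The family has 5 genes, Fgfr1, Fgfr2, Fgfr3, Fgfr4 and Fgfrl1, taken by symbol from the 31053 genes listed for the embryonic stage E15.5 and the 27998 listed for E17.5, and all 5 were present in both lists. The coronal suture is the fibrous joint between the frontal and parietal bones of the skull. The E15.5 library held cells of 10 pooled coronal sutures of wild-type C57/BL6 embryos, digested with Collagenase II and Dispase and depleted of dead cells with a kit. The E17.5 sample held cells of 16 sutures of the same strain from 2 litters, handled in 3 batches of 10, 3 and 3 sutures, digested with Collagenase IV and sorted by flow cytometry. Its 3 batches were made into separate libraries and joined after counting, so the joined data are called the E17.5 library here. Both were made with droplet chemistry that counts unique molecular identifiers (UMIs) at the 3′ end of transcripts, after skin, brain and part of the meninges had been removed. No embryo carried a mutation or received a treatment. There was 1 sample per stage, so no test between stages or samples was made, and every interval given is a 95% interval that covers counting error only. The 3 E17.5 batches are a technical control within 1 sample, and are given apart for the osteogenic comparison by the suffix of their barcodes. Stage, dissociation, sorting, batch and the version of the counting software and gene annotation changed together and cannot be told apart.

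FGF receptors are tyrosine kinases at the cell surface that bind FGF ligands together with heparan sulfate and pass the signal on mainly through the RAS and ERK kinases. Fgfrl1 is the member of the family that lacks the kinase part. In the skull, activating variants of FGFR1, FGFR2 and FGFR3 are known causes of early suture fusion, and Fgfr3 is known as a brake on cartilage growth. Alternative exons give Fgfr1, Fgfr2 and Fgfr3 forms with different ligand binding, which 3′ counting does not resolve.

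The genes lie on 4 chromosomes of the GRCm38 mouse genome in the RefSeq annotation. Fgfr1 spans chr8:25518759-25575718 on the + strand, Fgfr2 chr7:130162451-130266808 on the − strand, Fgfr3 chr5:33721724-33737068 on the + strand, Fgfr4 chr13:55152818-55168759 on the + strand and Fgfrl1 chr5:108694229-108706950 on the + strand. Upstream sequences of 3 members are shown because their levels set apart the cell groups described here: Fgfr2 and Fgfr3 were both highest in OG3, a pre-osteoblast cluster, at E15.5 by point value, and Fgfr3 and Fgfrl1 were both high in cartilage cells. The sequences are from RefSeq (GRCm38.p6), end just before the gene's RefSeq start, or 50 bases before it for Fgfr3, and run 5′ to 3′ on the gene's own strand. Capitals mark matches, on either strand, to GGGCGG (the GC box) or GGAAGT (an ETS factor core); TGTGGT (RUNX) and CTTTGT (SOX) were also searched.
Fgfr2, chr7:130266809-130267058, − strand: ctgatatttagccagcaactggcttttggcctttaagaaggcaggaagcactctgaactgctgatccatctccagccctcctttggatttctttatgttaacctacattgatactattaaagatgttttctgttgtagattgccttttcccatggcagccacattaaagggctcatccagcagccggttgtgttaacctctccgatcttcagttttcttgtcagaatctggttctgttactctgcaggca
Fgfr3, chr5:33721474-33721673, + strand: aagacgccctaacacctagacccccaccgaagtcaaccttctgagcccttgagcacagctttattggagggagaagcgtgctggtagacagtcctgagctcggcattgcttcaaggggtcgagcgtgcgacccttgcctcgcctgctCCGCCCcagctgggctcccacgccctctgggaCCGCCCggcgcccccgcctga
Fgfrl1, chr5:108693979-108694228, + strand: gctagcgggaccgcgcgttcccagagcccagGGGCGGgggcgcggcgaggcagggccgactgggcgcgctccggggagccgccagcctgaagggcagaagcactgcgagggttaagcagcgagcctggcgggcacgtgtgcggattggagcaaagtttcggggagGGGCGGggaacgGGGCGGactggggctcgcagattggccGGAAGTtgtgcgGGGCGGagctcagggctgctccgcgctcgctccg
The Fgfr2 window held none of the 4 motifs and was 44% G and C, against a median of 52.4% over all 32851 promoter windows of its length. The Fgfrl1 window was 73.6% G and C and held 4 GC boxes and 1 ETS core, against 32.7% and 19.7% of all windows with at least 1 match. The Fgfr3 window was 65% G and C and held 2 GC boxes on the opposite strand, against 24.6% of windows of its length with at least 1. It overlaps an exon of the noncoding gene G630022F23Rik on the opposite strand, and the Fgfr2 and Fgfrl1 windows lie in introns of longer GENCODE models of the same genes. A match is a description of the letters and not a binding site.

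The study's own labels placed 5335 cells of the E15.5 matrix and 6830 of the E17.5 matrix in 15 clusters: 6 osteogenic ones (OG1 to OG4 and the proliferating PO1 and PO2), 4 ectocranial ones on the outer face of the skull (EC1 to EC4), a ligament-like one (LIG) and 4 meningeal ones (MG1 to MG4). The ligament-like cluster is counted here with the ectocranial ones. The labelled cells held 48607817 and 92585034 UMIs at the earlier and later stage, with medians of 8510 and 12301.5 UMIs per cell. Of all 9283 distinct barcode sequences listed at E17.5, 190 also occurred at E15.5. At E15.5, 3 clusters went against their osteogenic label: the osteogenic marker genes Runx2, Sp7, Dlx5 and Dlx6 summed to 38.5 counts per 1000000 UMIs (CPM) in OG2, 30.8 in PO1 and 45.4 in PO2, against 270 in OG3 and 442 in OG4. The fibroblast gene Dpt, a marker of EC1 to EC3, stood in OG2, PO1 and PO2 at 199, 195 and 171 CPM. The other 2 markers of EC1 to EC3 did not go with it. Ly6a stood there at 43.9, 28.9 and 53.7 CPM, against 598, 1053 and 391 in EC1, EC2 and EC3. Pi16 stood at 35.3, 18.1 and 37.2 CPM, against 563, 951 and 243. At E17.5, the ectocranial cluster EC1 held Sp7 and Dlx5, which mark osteoblast precursors, at 110 and 94.1 CPM. OG1 at E15.5 held the osteogenic markers at 81.1 CPM, near MG2 at 73.8 and LIG at 69.4, and its own markers Erg and Pthlh at 21.3, below MG2 at 56.3. It also held skeletal muscle markers at 723 CPM and keratinocyte markers at 409 CPM, more than any other cluster of that library. The comparisons of osteogenic with all other labelled cells are given with and without the E15.5 clusters for Fgfr1, Fgfr2 and Fgfr3. They are given without EC1 for Fgfr2. The part of foreign cells in these clusters was not tested.

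Fgfr1 and Fgfr2 made up most of the receptor message, with 7042 and 957 UMIs in the labelled cells of the E15.5 library and 12611 and 7262 in those of the E17.5 library. Fgfr3 gave 301 and 995 UMIs, Fgfrl1 232 and 649, and Fgfr4 33 and 16. CPM values refer to all UMIs of the same cells and are not scaled to gene length, as each molecule is counted once near its 3′ end. Because free RNA can reach any droplet, the levels are read beside those of myeloid-like cells outside the labels, which are not known for these receptors. The myeloid-like cells, 395 in the first library and 557 in the second, held Fgfr1 at 27.0 and 20.1 CPM, Fgfr2 at 8.46 and 15.52, Fgfr3 at 9.52 and 4.06, Fgfrl1 at 2.38 and 1.41, and no Fgfr4 UMI.

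Fgfr1, the receptor of widest use in mesenchyme, stood above the myeloid-like level in all 15 clusters at both stages, with each cluster's interval wholly above that of the myeloid-like cells. At E15.5 its osteogenic levels were 135 CPM in OG1, 269 in OG2, 87.3 in OG3, 239 in OG4, 220 in PO1 and 281 in PO2. The other clusters held 138 in EC1, 129 in EC2, 141 in EC3, 115 in EC4, 113 in LIG, 130 in MG1, 104 in MG2, 60.0 in MG3 and 64.7 in MG4. The osteogenic clusters thus held both the highest Fgfr1 levels and, in OG3, one of the 3 lowest by point value. Of the clusters with the highest levels, PO2, OG2 and PO1 are those that held few osteogenic markers at this stage, and OG4 is not. Of the 14 pairs of neighbours in the order at E15.5, 1 had intervals that did not overlap, and 3 other clusters overlapped the top one, PO2. At E17.5 the range was narrower, from 95.8 CPM in MG4 (82.4 to 111) to 163 in OG4 (156 to 171), and no pair of neighbours was separated. The E17.5 levels were 153 in OG1, 132 in OG2, 115 in OG3, 130 in PO1, 143 in PO2, 136 in EC1, 162 in EC2, 161 in EC3, 155 in EC4, 122 in LIG, 96.8 in MG1, 140 in MG2 and 97.0 in MG3.

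Fgfr2, the receptor best known from coronal suture fusion in Apert and Crouzon syndromes, was highest in OG3 at both stages and lowest in EC2. OG3 holds what the study describes as pre-osteoblasts of the periosteum, OG2 those of the suture. At E15.5 OG3 held 92.8 CPM (76.9 to 111), and its interval lay above that of every other cluster. The other osteogenic clusters held 47.3 CPM in OG1, 36.1 in OG2, 31.8 in PO1, 47.5 in PO2 and 17.7 in OG4, the mature osteoblasts. The meningeal clusters held 34.4 in MG1, 55.6 in MG2, 29.5 in MG3 and 15.05 in MG4, and the ectocranial ones 11.4 in EC1, 4.13 in EC2, 5.22 in EC3, 10.5 in EC4 and 16.04 in LIG. EC2 and EC3 were at or below the myeloid-like level and cannot be told from background as whole clusters, and 10 of 15 clusters had intervals wholly above it. At E17.5 OG3 held 132 CPM (126 to 139) and PO2, with 76 cells, 132 (115 to 151), so the leading pair overlapped. OG2 held 117, PO1 108, OG1 97.1, EC1 92.5, MG1 71.7, MG2 70.0, OG4 55.1, EC4 46.7, MG3 42.6, MG4 42.6, LIG 39.5, EC3 30.0 and EC2 15.1. EC2 was again no higher than the myeloid-like cells, while the other 14 clusters had intervals wholly above them. OG4 thus held less Fgfr2 than each of the other 5 osteogenic clusters at both stages by point value.

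Fgfr3, which restrains chondrocyte growth and is also made by osteoblasts, was scarce in the labelled cells but was again highest in OG3. OG3 held 25.5 CPM (17.6 to 35.8) at E15.5 and, at the later stage, 29.4 CPM (26.5 to 32.5). At E15.5 this was the only cluster wholly above the myeloid-like interval. The other clusters held between 2.07 CPM (PO2, 1 UMI) and 19.1 (MG1), and the MG1 value rested on 5 UMIs in 28 cells that also held the highest sum of chondrocyte marker genes of any cluster, at 1233 CPM. Whether cartilage cells contributed to it was not tested. At E17.5 the intervals of OG1 (8.78 CPM), OG2 (10.2), OG4 (12.7) and PO1 (13.8) also lay above the myeloid-like one, and OG3 was separated from each of them. PO2 held 9.88, EC1 9.09, MG4 7.37, MG3 7.35, MG1 5.45, EC3 5.08, MG2 3.93, LIG 3.91, EC4 3.34 and EC2 2.39, none of them wholly above the myeloid-like level.

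Fgfrl1, the receptor without a kinase, was highest among the labelled cells in MG2, a layer the study proposes to be periosteal dura. MG2 held 17.2 CPM (12.8 to 22.6) at E15.5 and, at the later stage, 21.9 CPM (17.9 to 26.5), and at both stages its interval lay above that of the next cluster. At E15.5 the next were LIG at 7.27, OG4 at 6.08, EC4 at 5.86 and MG3 at 4.58, and 9 further clusters lay between 1.5 (MG4) and 4.16 (OG1). No UMI was seen in the 28 cells of MG1, which allows up to 11.5 CPM by a limit of 3 counts. The exact interval of MG1 reached 14.1 CPM and so overlapped that of MG2. At E17.5 MG1 held 12.4, MG3 11.8, LIG 8.80 and MG4 8.42, and the remaining clusters lay between 3.55 (EC3) and 6.90 (EC4). Clusters wholly above the myeloid-like interval were LIG and MG2 at E15.5, while at E17.5 there were 13, all but PO2 and EC3. Fgfr4, a receptor known mainly from liver and muscle, reached at most 3.92 CPM in the E15.5 library (PO1, 8 UMIs) and 0.508 CPM in the E17.5 library (EC3, 1 UMI). PO1 and OG2 lay above the myeloid-like interval at the earlier stage and no cluster did at the later one. No pair of neighbours in the order was separated at either stage, which leaves the order below the resolution of this depth.

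**Figure D1:**
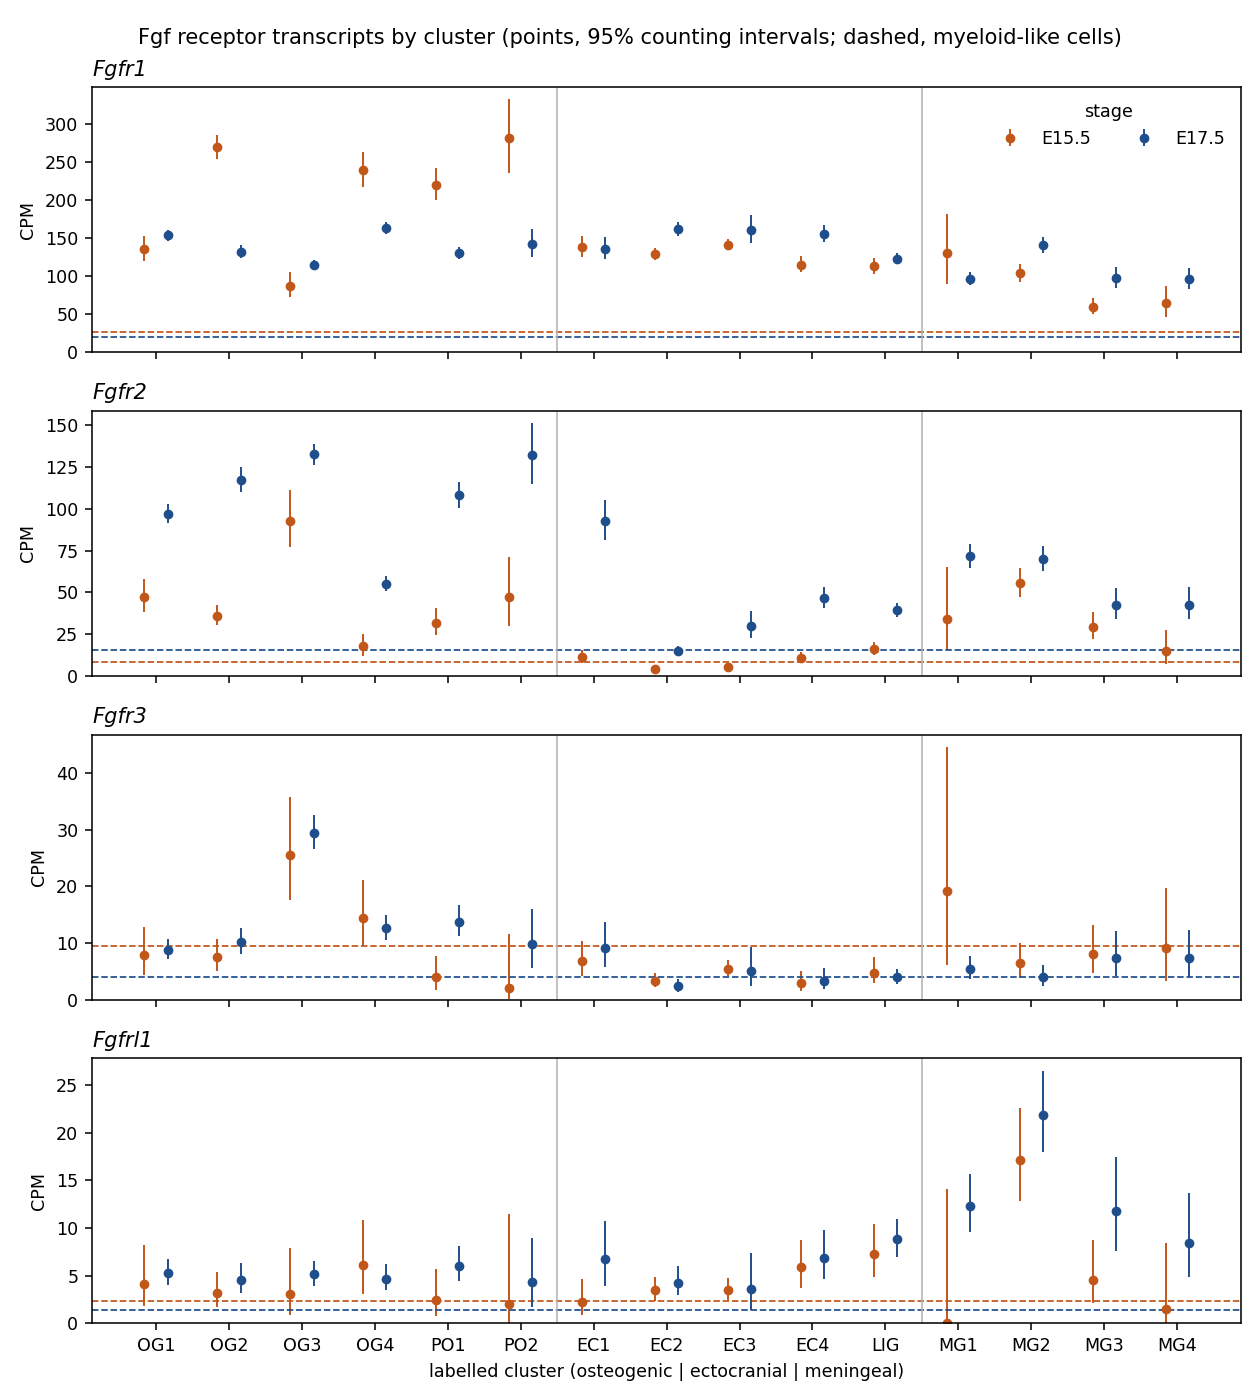
Levels of Fgfr1, Fgfr2, Fgfr3 and Fgfrl1 in CPM in the 15 labelled clusters of both stages; points are sums over the cluster's cells, bars 95% intervals for counting error and dashed lines the level in myeloid-like cells. Fgfr2 and Fgfr3 peak in OG3 and Fgfrl1 in MG2 at both stages, while the lowest Fgfr1 level is 60.0 CPM, in MG3.

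The osteogenic cells as a whole were set against all other labelled cells within each library. Fgfr2 stood at 41.1 CPM in osteogenic cells and 12.9 in the others at E15.5, a 3.18-fold difference (2.79 to 3.61). At E17.5 it stood at 103 against 46.7, a 2.21-fold difference (2.09 to 2.33), and the 3 sets of E17.5 barcodes that differ by their suffix gave 2.21, 2.25 and 2.17. Without OG2, PO1 and PO2 the E15.5 ratio was 3.74, without OG1 as well 3.79, and without EC1 the E17.5 ratio was 2.36. Which suffix stands for which batch is not given in the sources used here. Fgfr2 was the 1 member of the 4 with at least 50 UMIs in each library that was at least 2-fold higher in osteogenic cells in both, and no member was 2-fold lower. Over all 12150 genes of that depth, 2.96% were at least 2-fold higher in both and 6.3% at least 2-fold lower. Without OG1, OG2, PO1 and PO2 at E15.5 and EC1 at E17.5, 2 members were higher, Fgfr2 and Fgfr3, where 2.21% of all genes were.

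Fgfr3 stood at 9.78 CPM in osteogenic cells and 5.06 in the others at E15.5, a ratio of 1.93 (1.52 to 2.45). At E17.5 it stood at 15.6 against 4.48 CPM, a ratio of 3.49 (2.96 to 4.12). The E15.5 ratio was 1.28 when every cell was first thinned to 3000 UMIs, 2.91 without OG2, PO1 and PO2, and 3.76 without OG1 as well. Fgfrl1 ran the other way, at 3.60 against 5.14 CPM at E15.5, a ratio of 0.70 (0.49 to 0.98). At E17.5 it stood at 5.08 against 9.50 CPM, a ratio of 0.54 (0.46 to 0.63). At E15.5 Fgfrl1 stood at 3.17 CPM in OG2, 2.45 in PO1 and 2.07 in PO2, the clusters that held few osteogenic markers. OG1, OG3 and OG4 held 4.16, 3.09 and 6.08 CPM. The E15.5 Fgfrl1 ratio without OG2, PO1 and PO2 is not given here, so the lower level holds for the full set of clusters only. Thinning to 3000 UMIs turned the Fgfrl1 direction at E15.5, with a ratio of 1.09. In the E17.5 barcodes of suffix 1 alone the ratio was 0.921.

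Fgfr1 was higher in osteogenic cells by a wide margin at E15.5 and by a small one at E17.5. It stood at 214 CPM in osteogenic cells against 123 in the others at E15.5, a ratio of 1.74 (1.65 to 1.82). At E17.5 it stood at 139 against 133 CPM, a ratio of 1.05 (1.01 to 1.09). The E15.5 ratio was 1.30 without OG2, PO1 and PO2, and 1.43 without OG1 as well. At E17.5 it was 0.862, 1.06 and 1.14 in barcodes of suffix 1, 2 and 3, so its direction was not the same in all 3. Suffix 1 held 1234 of the 6830 labelled cells and no MG1 cell.

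Against the meninges alone, the receptors gave other ratios. Fgfr1 was 2.49-fold higher in osteogenic than in meningeal cells at E15.5 and 1.25-fold higher in them at E17.5. Fgfr2 was at 41.1 and 41.3 CPM at E15.5, a ratio of 1.00, and 1.63-fold higher in osteogenic cells at E17.5. Fgfrl1 was lower in osteogenic cells, at 0.35 and 0.34 times the meningeal level. Without OG2, PO1 and PO2 the E15.5 ratios were 1.87 for Fgfr1, 1.17 for Fgfr2 and 0.44 for Fgfrl1, and without OG1 as well 2.05, 1.19 and 0.46. The separation of Fgfr2 at E15.5 was therefore between osteogenic and meningeal cells on one side and ectocranial cells, at 7.59 CPM, on the other.

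**Figure D2:**
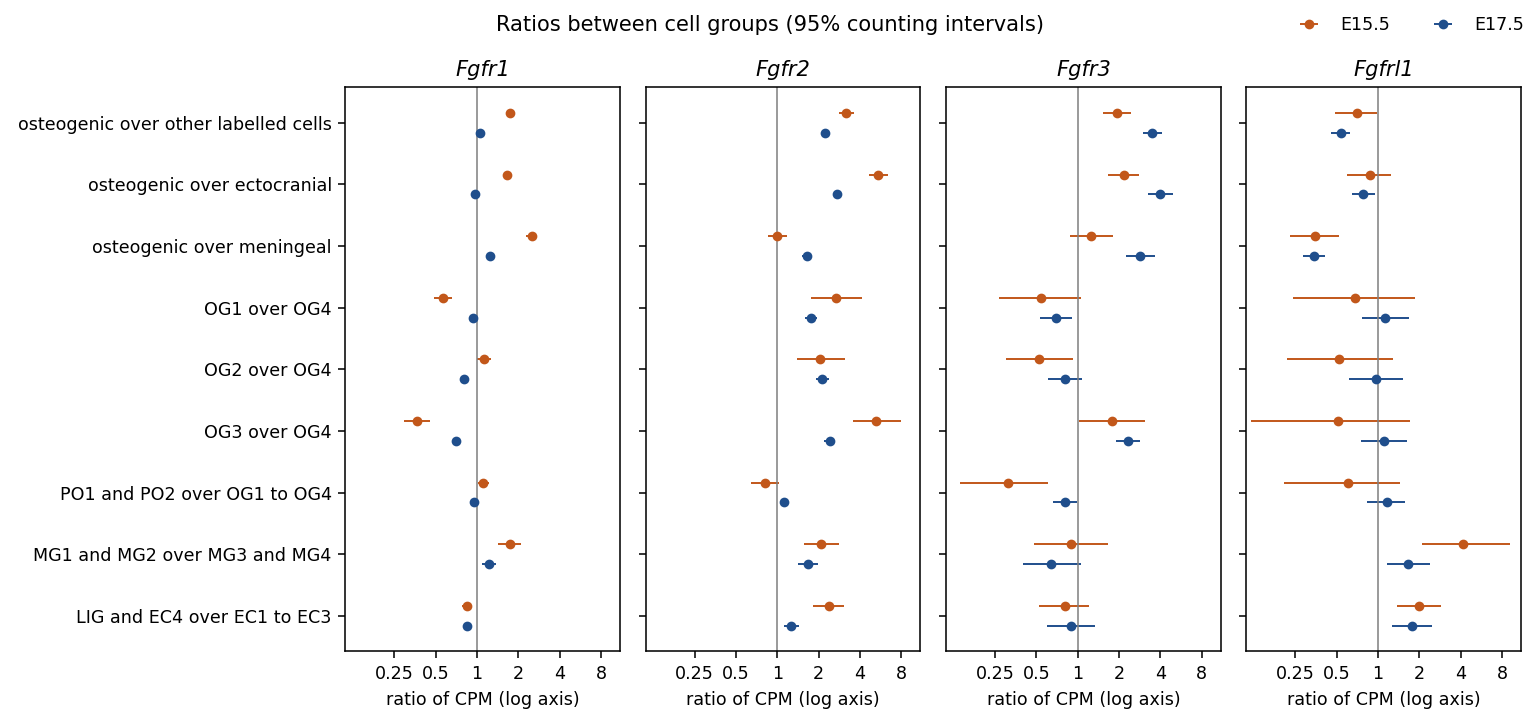
Ratios of the levels of Fgfr1, Fgfr2, Fgfr3 and Fgfrl1 between groups of labelled clusters within each library, on a log axis with 95% intervals for counting error. Fgfr2 and Fgfr3 lie above 1 for osteogenic over other labelled cells at both stages and Fgfrl1 below 1.

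Within the osteogenic clusters, OG3 and the mature osteoblasts of OG4 differed in the opposite direction for Fgfr1 than for Fgfr2 and Fgfr3. OG3 held 5.25 times the Fgfr2 level of OG4 at E15.5 and 2.41 times its level at E17.5. The OG3 level of Fgfr3 was 1.78 and 2.32 times that of OG4. For Fgfr1 the OG3 level was 0.37 and 0.70 times that of OG4. Scaling by median-of-ratios size factors in place of total UMIs raised the OG4 levels against those of OG3. The log2 size factor difference of OG4 against OG3 was -0.47 (E15.5) and -0.17 (E17.5). By point value all 3 receptors kept these directions under it, with Fgfr3 at 1.28 and 2.06. The E15.5 Fgfr3 interval was 1.03 to 3.09 with total UMIs, and none is given with size factors. OG2, the other pre-osteoblast cluster, also held more Fgfr2 than OG4, by 2.04 and 2.13 times, but its Fgfr3 level was 0.53 (0.30 to 0.92) and 0.81 (0.60 to 1.07) times that of OG4 and its Fgfr1 ratio was 1.13 and 0.81. The first of each pair is from the E15.5 OG2 cells, which held few osteogenic markers. OG1 held 2.68 and 1.76 times the Fgfr2 level of OG4, the first value from the E15.5 cells that also held muscle and keratinocyte markers.

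The proliferating clusters PO1 and PO2 held less Fgfr3 than OG1 to OG4 in both libraries, at 0.31 times (0.14 to 0.61) and 0.81 times (0.66 to 0.99) their level, though the second ratio was 1.04 in barcodes of suffix 3. The Fgfr2 ratio was 0.81 (0.64 to 1.03) at E15.5 and 1.11 (1.04 to 1.19) later, the second being 0.912 in thinned cells. At E15.5 both clusters are among those that held few osteogenic markers.

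Among the meningeal clusters, 3 receptors were higher in MG1 and MG2 pooled, which the study proposes to be periosteal dura, than in MG3 and MG4 pooled. The ratios for Fgfr2 were 2.08 (1.57 to 2.80) and 1.66 (1.41 to 1.98). Those for Fgfr1 were 1.73 and 1.22 and those for Fgfrl1 4.15 and 1.66, with every interval above 1. MG1 alone did not share all of this. At E17.5 its Fgfr1 level was 96.8 CPM, against 140 in MG2, 97.0 in MG3 and 95.8 in MG4. Its Fgfrl1 level then was 12.4 CPM, against 21.9 in MG2, 11.8 in MG3 and 8.42 in MG4. All 51 Fgfrl1 UMIs of the pair at E15.5 were from MG2. Among the ectocranial clusters, LIG and EC4 held more Fgfrl1 than EC1 to EC3, by 1.99-fold and 1.75-fold, and less Fgfr1, at 0.84 and 0.85 times. Thinning turned the Fgfrl1 ratio at E15.5 to 0.674, and suffix 1 alone turned the Fgfr1 ratio at E17.5 to 1.17. Fgfr2 was 2.36-fold higher in LIG and EC4 at E15.5 and 1.26-fold higher later. The later ratio was 0.941 with equal weight per cluster and 2.32 without EC1, the cluster that held Sp7 and Dlx5.

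The share of each receptor among the receptor UMIs of a cell group does not depend on the total used for scaling. In osteogenic cells Fgfr1 gave 79.2% and Fgfr2 15.2% of the UMIs of the 5 genes at E15.5, and these shares were later 52.9% and 39.2%. OG3 stood apart from the other osteogenic clusters at E15.5, with 41.9% Fgfr1, 44.4% Fgfr2 and 12.2% Fgfr3. OG4 held 86.2% Fgfr1 and 6.39% Fgfr2. At E17.5 OG3 was little different, with 40.7% Fgfr1, 47.0% Fgfr2 and 10.4% Fgfr3, while OG2 held 50% and 44.4% and OG4 69.2% and 23.3% of Fgfr1 and Fgfr2. The ectocranial cells held 88.7% Fgfr1 and 5.17% Fgfr2 at the earlier stage and 74.9% and 19.6% at the later. EC2 held the largest Fgfr1 share of the 15 clusters at both stages, at 92.1% and 88.0%. The meningeal cells held 58.8% Fgfr1 and 28.3% Fgfr2, then 57.1% and 32.3%, and in MG2 Fgfrl1 took 9.39% and 9.25%.

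**Figure D3:**
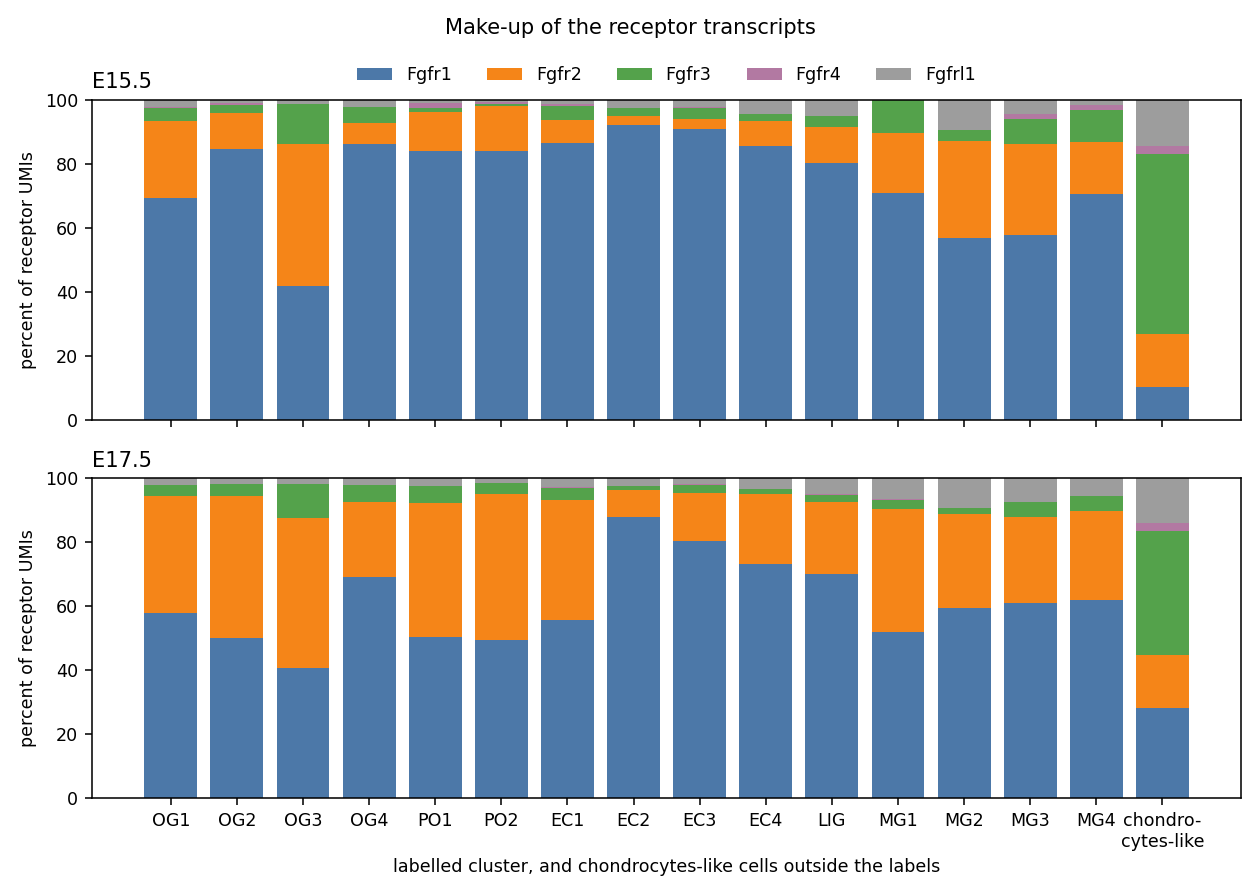
Share of each receptor gene among the UMIs of all 5 genes, in percent, for the 15 labelled clusters and the chondrocytes-like cells of both stages. Fgfr1 takes the largest share in every labelled cluster but OG3, and Fgfr3 takes it in the chondrocytes-like cells.

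Between the stages, Fgfr2 was higher at E17.5 in every cluster, though EC2 was no higher than the myeloid-like cells at either stage. Its mean level over the 15 clusters was 30.3 CPM at E15.5 and 72.9 CPM later, a 2.40-fold difference, and the E17.5 level was higher with an interval above 1 in 15 of 15 clusters, from 1.26-fold in MG2 to 8.13-fold in EC1. EC1 held Sp7 and Dlx5 at 2.93 and 3.25 CPM at the earlier stage against 110 and 94.1 at the later, and its E17.5 cells without a UMI of either held Fgfr2 at 43.5 CPM against 92.5 in the whole cluster. Fgfr2 was the 1 of the 4 measured members at least 2-fold higher at E17.5 by this mean, where 3.82% of all 12150 genes were, and no member was 2-fold lower, where 6.95% were. Without OG2, PO1, PO2 and EC1 the ratio of the means was 1.96, and without OG1 as well 1.94, both just below 2-fold. No member passed 2-fold in these 2 sets, where 3.85% and 4.16% of all genes did. The median gene had a ratio of 1.01. The Fgfr2 level of the myeloid-like cells was also higher at E17.5, by 1.83-fold (1.21 to 2.84), and that of osteoclasts-like cells by 2.77-fold (1.46 to 5.51), while in chondrocytes-like cells the ratio was 1.15 (0.98 to 1.35). What part handling, counting and annotation had in the difference cannot be told apart from stage.

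Fgfr1 gave a mean ratio of 0.90 between the stages, with intervals above 1 in 7 clusters, below 1 in 4 and across 1 in 4. The 4 clusters with less Fgfr1 at E17.5 were OG2 at 0.49 times the E15.5 level, PO2 at 0.51, PO1 at 0.59 and OG4 at 0.68. OG2, PO1 and PO2 are the clusters whose E15.5 cells held few osteogenic markers, and without them and EC1 the mean ratio was 1.11, the opposite direction. Fgfrl1 gave a mean ratio of 1.72 with intervals above 1 in 2 clusters, and Fgfr3 had 1 cluster above and 1 below.

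The share of cells with at least 1 UMI of Fgfr2 followed the same pattern as its level once every cell was thinned to 3000 UMIs. In OG3, 24.8% of cells (17.7 to 33.0) held Fgfr2 at E15.5 and 33.3% (30.3 to 36.5) held it at E17.5, against 2.36% and 4.85% of myeloid-like cells. Without thinning, the OG3 shares were 50% and 78.4% and the myeloid-like shares 6.84% and 14.9%, at median depths of 8519 and 12948 UMIs in OG3 and 8803 and 9206 in the myeloid-like cells. Thinning left out 7 OG3 cells and 13 myeloid-like cells at E15.5, and none of either later. For Fgfr1, 21.1% of OG3 cells and 53.7% of OG2 cells held a UMI at E15.5, and 29.8% and 30.1% did later. The thinned shares of the scarce members did not all follow their levels at E15.5. Fgfr3 was seen in 7.41% of MG1 cells, 2 of 27, and in 6.02% of OG3 cells. Fgfrl1 was seen in 1.46% of osteogenic and 1.00% of ectocranial cells. Both Fgfr1 and Fgfr2 were seen together in 4.79% of thinned osteogenic cells at E15.5, where the product of the separate shares gives 4.75%, and in 8.88% at E17.5, where it gives 8.98%. In all 15 clusters of each library that product lay within the interval of the observed share, so at this depth no pairing or mutual avoidance of the receptors was detectable.

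Cells of a cluster were also split by whether they held a UMI of Sp7 or Dlx5, regulators of osteoblast formation. At E17.5, in the 13 clusters with at least 10 cells on each side, Fgfr2 was higher in the cells with such a UMI by point value in 12, with an interval above 1 in 9, and Fgfr1 had no interval above or below 1. In EC1 the Fgfr2 level was 122 CPM in the 170 cells with Sp7 or Dlx5 and 43.5 in the 125 cells without, a 2.79-fold difference (1.98 to 4.01). The Fgfr1 level of the same cells was 125 and 154 CPM, a ratio of 0.81 (0.65 to 1.02). The difference was also present in other clusters outside the osteogenic label, at 3.47-fold in EC3, 3.25-fold in EC4, 1.63-fold in LIG, 1.64-fold in MG3 and 1.74-fold in MG4. The intervals crossed 1 in EC2 (1.30), MG1 (1.09) and MG2 (1.17). OG3, the cluster with the highest Fgfr2 level, was the one with a ratio below 1, at 0.87 (0.66 to 1.18). Cells with a UMI of Sp7 or Dlx5 were the deeper ones, with a median of 7362 against 6128 UMIs in EC1, and depth and content were not separated. At E15.5, Fgfr2 had an interval above 1 in 3 of 12 clusters, OG2, EC2 and EC3, and Fgfr1 had one below 1 in 2, OG2 and LIG.

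**Figure D4:**
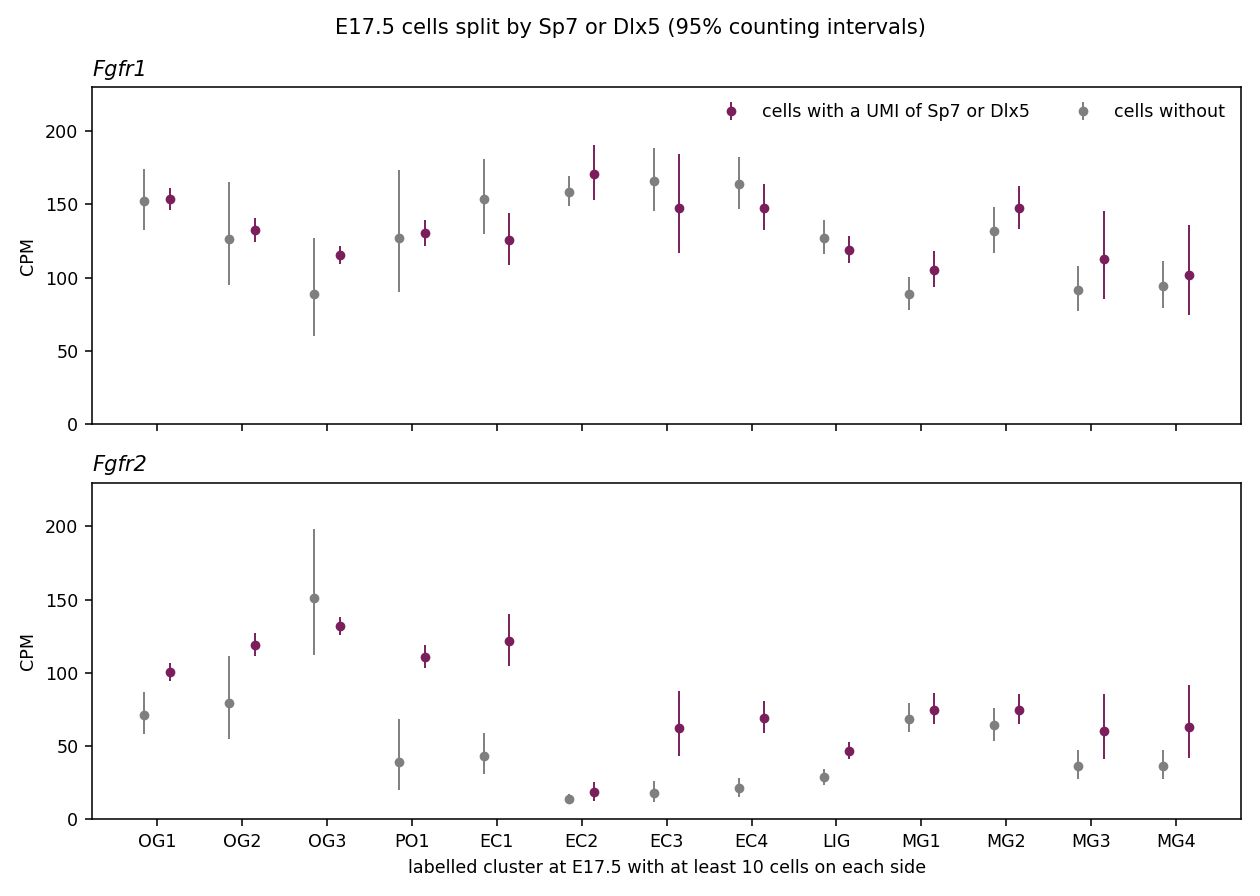
Levels of Fgfr1 and Fgfr2 at E17.5 in cells with and without a UMI of Sp7 or Dlx5, in CPM, for each cluster with at least 10 cells on both sides; bars are 95% intervals for counting error. The Fgfr2 points with Sp7 or Dlx5 lie above those without in 12 of 13 clusters.

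The highest Fgfr3 levels of these libraries were in cartilage-like cells that carried no cluster label of the study. Unlabelled cells that passed the study's stated filters were clustered, and those named chondrocytes-like from their markers numbered 793 in the E15.5 library and 318 in the E17.5 library. They held Fgfr3 at 203 CPM (194 to 212) and 160 CPM (146 to 174), which is 20.7 and 10.2 times the osteogenic level. Fgfrl1 stood at 52.4 and 57.0 CPM there, 14.5 and 11.2 times the osteogenic level, and Fgfr4 at 8.24 and 10.5 CPM, above every labelled cluster at either stage by point value. Fgfr2 was at 59.4 and 68.4 CPM, and Fgfr1 at 37.2 and 116 CPM, below the osteogenic level at both stages. Fgfr3 therefore gave 56.4% of the receptor UMIs of these cells in the first library and 38.8% in the second, and Fgfr1 gave 10.3% and 28.1%.

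The chondrocytes-like cells were not uniform, and different kinds made up the class at the 2 stages. At E17.5 they comprised a cluster of 194 cells led by Matn1 and Col2a1 and another of 124 cells led by Prg4 and Clu. Matn1 and Col2a1 encode cartilage matrix proteins, and Prg4 a lubricant of joint surfaces. The first held Fgfr3 at 199 CPM, Fgfrl1 at 65.3, Fgfr4 at 14.8 and Fgfr1 at 87.2, and the second 71.4, 38.2, 1.01 and 180 CPM. At E15.5 a cluster of 316 cells led by Prg4 and Clu was not named and held Fgfr3 at 51.2 CPM, so the class held Prg4-led cells at the later stage only. In that earlier library the highest Fgfr3 level was 435 CPM (351 to 533), in a cluster of 46 cells led by Ibsp, Acan and Matn1. The highest Fgfr1 level, 390 CPM (348 to 436), was in an unnamed E15.5 cluster of 72 cells led by Stmn2, Dll1 and Sox18. An unnamed E17.5 cluster of 160 deep cells, with a median of 35968.5 UMIs and led by Sp7 and Ihh, held Fgfr2 at 142 CPM (132 to 153).

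**Figure D5:**
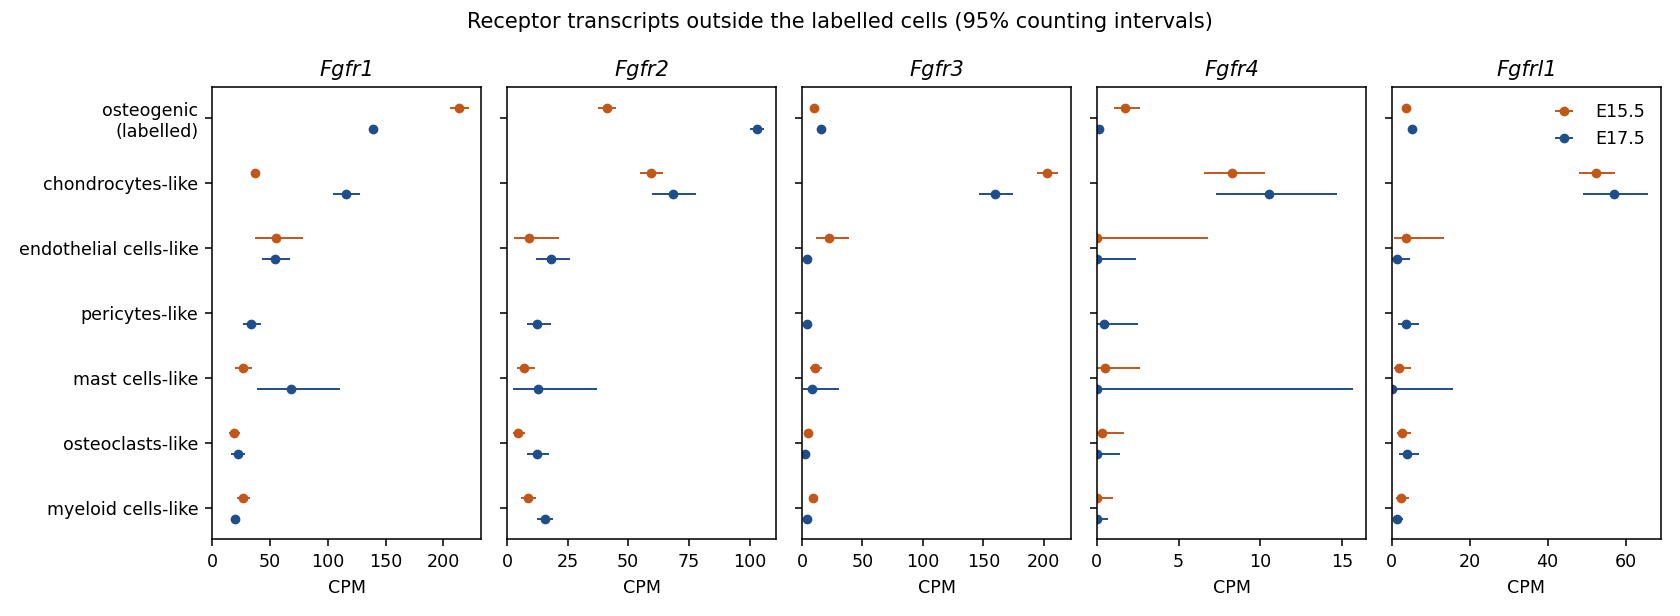
Receptor levels in unlabelled cell types and in the labelled osteogenic cells, in CPM, with 95% intervals for counting error. Fgfr3 and Fgfrl1 are highest in the chondrocytes-like cells at both stages, where Fgfr3 reaches 203 and 160 CPM.

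Across the 30 cluster and stage values, Fgfr2 and Fgfr3 had a Pearson correlation of their log2 levels of 0.54, and no other pair of the 4 measured members exceeded 0.005. The points share libraries and depth, and the correlation is a description only. Among genes of at least 500 UMIs per library, Omd, Alpl and Cisd1 had the levels most like those of Fgfr3, at r of 0.78, 0.77 and 0.77. Alpl is the phosphatase of bone mineralization and Omd a small proteoglycan of bone. The genes most like Fgfr1 were Hdac5, Rps6ka3 and Robo2 (0.81, 0.76 and 0.75). Their likeness to Fgfr1 was mostly that of the E15.5 clusters, at r of 0.91, 0.81 and 0.88 there and 0.29, 0.54 and 0.31 at E17.5. Those most like Fgfr2 were Upf3b, Naa10 and Net1 (0.82, 0.82 and 0.81), and those most like Fgfrl1 were Pick1, Crebbp and Dapk3 (0.73, 0.73 and 0.71).

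The other genes of the pathway are described by how many were at least 2-fold higher or lower in osteogenic than in other labelled cells in both libraries, which 2.96% and 6.3% of all genes were. The median log2 ratio of all genes was 0.02 and -0.05 at the 2 stages. Of the 19 adaptor and MAP kinase genes measured, which carry the signal inward, none was higher or lower by that rule, with medians of 0.08 and -0.09. Of 7 measured receptor partners (medians 0.11 and -0.12), Cdh2, the N-cadherin gene, was higher, at 77.3 against 30.2 CPM in the E15.5 library and 66.0 against 29.8 in the E17.5 library. Flrt2, a membrane protein that binds FGF receptors, was lower, at 42.4 against 124 and 29.6 against 60.8 CPM. Of 12 heparan sulfate enzymes (medians -0.69 and -0.54), 4 were lower in osteogenic cells, among them Sulf1, which removes sulfate groups from heparan sulfate, at 35.8 against 126 CPM and 5.64 against 53.3. Of 6 measured ligands (medians -1.48 and -1.09) 3 were lower, Fgf18 among them at 8.75 against 27.0 and 2.70 against 23.3 CPM. Of 12 ERK feedback and target genes (medians 1.72 and -0.10) 1, Rasa3, was higher. Without OG2, PO1, PO2 and EC1, 2.26% of all genes were higher and 7.09% lower. The first median of the ERK genes was then 1.27, Rasa3 was again higher and 2 genes, Spred3 and Spry2, were lower. Flrt1 was lower beside Flrt2 among the partners. Without OG1 as well, 2.21% of all genes were higher and 8.69% lower. In that set 3 ERK genes, Il17rd among them, and 5 heparan sulfate enzymes were lower. Of the 12 ERK feedback and target genes, 9 were at least 2-fold lower at E17.5 than at E15.5 in the mean over clusters. Of all genes, 6.95% were. Without OG2, PO1 and PO2, 4 of the 12 were lower, where 5.81% of all genes were.

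The counts of the 5 receptors were checked for shared sequence. No run of 31 bases was shared between transcripts of different members, and 0.445% of those of Fgfr3 were shared with its pseudogene Fgfr3-ps, which is in neither gene list. The antisense gene Gm16159, which overlaps Fgfr1, was listed at E15.5 only and had no UMI in the labelled cells.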

How the data were processed

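Single-cell UMI matrices of 1 sample per stage were used, the E17.5 matrix joined by the authors from 3 separately prepared batches. Per the labels and methods, the authors aligned reads to mm10 and counted UMIs with Cell Ranger, and assigned clusters with Seurat 3.2.0; the deposited values are raw counts per gene and cell. The median labelled cell of the deposited E15.5 matrix held 0.740 of the UMIs that the cell table gives for it, and 5 of the 5340 labelled barcodes were absent. Of 15384 and 9326 barcodes, 8117 and 8767 passed the study's stated filters (at least 1000 UMIs and 1000 genes, at most 7.5% mitochondrial UMIs and 3% of each hemoglobin family), and 93 labelled E15.5 cells lay outside them. All per-sample columns were mapped to a sample. Counts were summed per cluster and library and divided by the sum over all genes, giving CPM. Intervals (95%) were exact Poisson for levels, conditional binomial for ratios and Clopper-Pearson for shares. Stray UMIs were not modelled. For lists, genes needed 50 UMIs in each library; the fold was 2. Likeness used log2(CPM + 1). Named genes were the members, the 3 genes most like each member, and up to 2 genes at each end of a list. Unlabelled cells were clustered with Leiden (2000 variable genes, 30 components, 30 neighbours, resolution 1) and named where at least 3 markers of a type were at 2-fold and more of its markers than of any other type's stood among the 10 leading genes, or where no type had any there. A cluster far below the median depth of its library also needed a marker there. Doublets were scored with Scrublet and cells above the 94th percentile left out in an alternative; the main values keep them. The tools were scanpy 1.11.5, pandas 2.3.3, numpy 2.4.6 and scipy 1.17.1 under Python 3.11.15, and the ratio script was tested on simulated data. The members, gene lists and markers were chosen with earlier results of these data known.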

Additional observations from a re-analysis of the deposited data

Results flagged for a closer look

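Fgfr1 in OG2 relative to OG4 had an interval wholly above 1 at one stage and wholly below 1 at the other. It was the only one of the 45 pairs of a contrast and a member compared that did so. The ratio was 1.13 at E15.5 (1.01 to 1.26), from 269 and 239 CPM, and 0.81 at E17.5 (0.75 to 0.87), from 132 and 163 CPM. The difference between the stages was not tested, as each stage had 1 sample. With median-of-ratios size factors the E15.5 ratio was 0.785, below 1 at both stages. At E15.5 the OG2 cells held Sp7 at 4.14 CPM and Dpt, a fibroblast gene, at 199 CPM. They held the other EC1 to EC3 markers, Ly6a and Pi16, at 43.9 and 35.3 CPM, and their own markers Lef1 and Inhba at 73.4 and 79.0. The part of these cells in the result was not tested.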

How the results depend on the processing

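No paired analysis was possible because each stage had 1 sample. Of the alternatives, leaving out OG1, OG2, PO1, PO2 or EC1 was chosen after seeing the data. For osteogenic over other labelled cells at E15.5, equal weight per cluster gave 1.86 for Fgfr1, 2.25 for Fgfr2 and 1.39 for Fgfr3. Leaving out OG2, PO1 and PO2 gave 1.30, 3.74 and 2.91, leaving out OG1 too gave 1.43, 3.79 and 3.76, and thinning gave 1.28 for Fgfr3 and 1.09 for Fgfrl1. At E17.5, Fgfr1 gave 1.09 without mitochondrial, ribosomal protein and collagen genes in the total, 0.862 in suffix 1 and 1.14 in suffix 3. Fgfr2 gave 2.36 without EC1, Fgfr3 gave 4.50 in suffix 1 and 2.65 with equal weight, and Fgfrl1 gave 0.921 in suffix 1. Of 12150 genes, 888 were at least 1.5-fold higher in osteogenic cells in both libraries and 1407 lower. Of the 4 measured members, 2 were higher (Fgfr2 and Fgfr3) and none lower. With any gene of 1 UMI or more, 823 of 17741 genes were 2-fold higher and 1781 lower. Of the 5 members, 1 was higher by that rule and none lower. At a clustering resolution of 0.5, chondrocytes-like cells at E15.5 held Fgfr1 at 46.3 CPM and Fgfr3 at 194.

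Other ratios that turned direction were Fgfr1 OG2 over OG4 at E15.5 with median-of-ratios (0.785), and Fgfrl1 in LIG and EC4 over EC1 to EC3 at E15.5 thinned (0.674). At E17.5 these were, in suffix 1, Fgfrl1 osteogenic over ectocranial (1.42), Fgfr1 osteogenic over meningeal (0.986), Fgfr2 proliferating over other osteogenic (0.984) and Fgfr1 in LIG and EC4 over EC1 to EC3 (1.17). Fgfr2 proliferating over other osteogenic gave 0.912 thinned, Fgfr3 gave 1.04 in suffix 3, and Fgfr2 in LIG and EC4 over EC1 to EC3 gave 0.995 thinned, 0.992 as the mean of each cell's CPM and 0.941 with equal weight. The cause of these changes was not tested. The other ratios whose interval excluded 1 kept their direction; depth limits Fgfr4 in every cluster and Fgfr3 and Fgfrl1 in small ones.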
